A study of Mus musculus with 17 samples.

Results

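The genes described here, Nlrp3, Aim2, Nlrc4, Mefv, Nek7, Pycard, Casp1, Casp4 and Gsdmd, encode the core of the macrophage inflammasomes and of pyroptosis. They were taken by gene symbol and are 9 of the 21683 rows of the expression table. An inflammasome forms when a sensor protein in the cytosol meets a microbial product or a sign of cell damage and, in most cases through the adaptor ASC, brings caspase-1 molecules together. Active caspase-1 matures interleukin-1β and interleukin-18 and cuts gasdermin D, whose fragment forms pores in the plasma membrane and leads to the lytic death called pyroptosis. In macrophages the sensor NLRP3 is scarce at rest and is made after signals that activate NF-κB, a step called priming, and IKKβ is the kinase that releases NF-κB in that pathway.

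Libraries were made from peritoneal macrophages, elicited with thioglycollate, of male, 8-week-old C57BL/6 mice. The F/F PBS group (n = 6 libraries) and the F/F Tat group (n = 6) came from mice with loxP-flanked IKKβ alleles (IKKβF/F), and the ΔMye Tat group (n = 5) from mice that also carried a heterozygous LysM-Cre knock-in (IKKβΔMye). Cells attached to plates for 4 h and were then given PBS or 100 nM of the HIV protein Tat for 12 h. The comparisons ask how Tat changed these genes in cells with IKKβ and how Tat-treated cells of IKKβΔMye mice differed from those of IKKβF/F mice. The labels place the collection 3 days after 1 mL of 3% thioglycollate, and the methods give a day more. LysM-Cre is active in myeloid cells in general, and only the ΔMye cells carried Cre. IKKβΔMye cells given PBS were not analysed here, so the ΔMye Tat and F/F Tat groups can differ by something present before Tat, and the response to Tat itself cannot be compared between genotypes. Per the study's legends, each library is a biological replicate from a mouse.

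Values are TPM, shares of a library's transcripts scaled for transcript length, so levels of different genes can be set side by side. The deposited values of a library sum to between 889318 and 903576 TPM. Ikbkb, which encodes IKKβ, was 16.4 ± 2.59 TPM (SD, n = 5) in ΔMye Tat and 23.2 ± 1.44 TPM (SD, n = 6) in F/F Tat, and the groups did not overlap. The mean over the whole gene in ΔMye Tat was thus 70.7% of that in F/F Tat, and no value for the loxP-flanked segment alone can be read from these gene-level values, so this is a weak check of the deletion. Macrophage markers summed over 7 genes to 25687 to 26692 TPM with PBS, 10012 to 10572 with Tat and 7865 to 8165 for ΔMye cells with Tat. Most of it was Lyz2, the gene into which Cre is inserted. The other markers moved both ways. In the same order the means were 499, 441 and 512 TPM for Adgre1, 2596, 1744 and 1886 for Cd68, and 381, 64.0 and 104 for Csf1r. Itgam had 178, 106 and 116 TPM, Cd14 203, 842 and 1009, and Mertk 15.4, 20.1 and 24.3. The summed markers of T cells were 2.05 to 6.30, 1.30 to 2.07 and 4.12 to 5.99 TPM in the same order, those of B cells 6.63 to 15.8, 7.53 to 9.99 and 5.25 to 7.18, and those of mast cells 29.4 to 42.9, 27.4 to 39.2 and 21.4 to 27.3. The neutrophil sum was 50.5 to 60.0, 62.7 to 76.1 and 85.9 to 102 TPM, nearly all of it S100a8, while Ngp was listed at 0 in every library and Ly6g and S100a9 stayed at or under 2.04 TPM. NK cell, mesothelial and eosinophil sums did not pass 2.19 TPM in any library, and the eosinophil gene Epx was at or under 0.0570 TPM. The part of these marker differences in the results below was not tested, and in bulk libraries fewer cells of a type and less RNA per cell cannot be told apart.

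On the deposited scale all 9 genes differed between F/F macrophages with and without Tat, not all in the same direction. In F/F macrophages the transcripts of the sensors Nlrp3 and Mefv, of both inflammatory caspases and of gasdermin D rose. Aim2 rose slightly (log2 fold change 0.31, or 0.94 after scaling). Pycard, the transcript of the adaptor ASC, fell to 29.9% of its level in PBS. At an adjusted p under 0.01, 6 genes were higher and 3 lower (Pycard, and Nlrc4 and Nek7, whose falls were lost after scaling), where 17% of the 10451 genes tested were higher and 67.6% lower. With a fold change over 3 in addition, Nlrp3, Casp4 and Mefv were higher and Pycard was lower, beside 5.21% and 19.4% of all genes. No F/F Tat library overlapped the F/F PBS libraries in any of the 9 genes on the deposited scale, 6 higher and 3 lower, beside 15.3% and 62.4% of all genes without overlap, but Nlrc4 and Nek7 overlapped after scaling. The exact permutation test of the mean TPM (two-sided) gave p = 0.00216 for each of the 9 genes, the smallest that 6 against 6 libraries allow.

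Some of these changes depended on the scale. The median log2 fold change of all genes tested was -0.65 with Tat, and the 9 genes had a median of 1.05. Median-ratio scaling, which sets the typical gene level between libraries, brought the median of all genes to -0.03 and that of the 9 genes to 1.68. On that scale 6 of the 9 genes were higher and 1, Pycard, was lower (37.1% and 38.1% of all genes), while the falls of Nlrc4 and Nek7 on the deposited scale were gone. The plot of log2 fold changes shows both scales side by side.

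**Figure D1:**
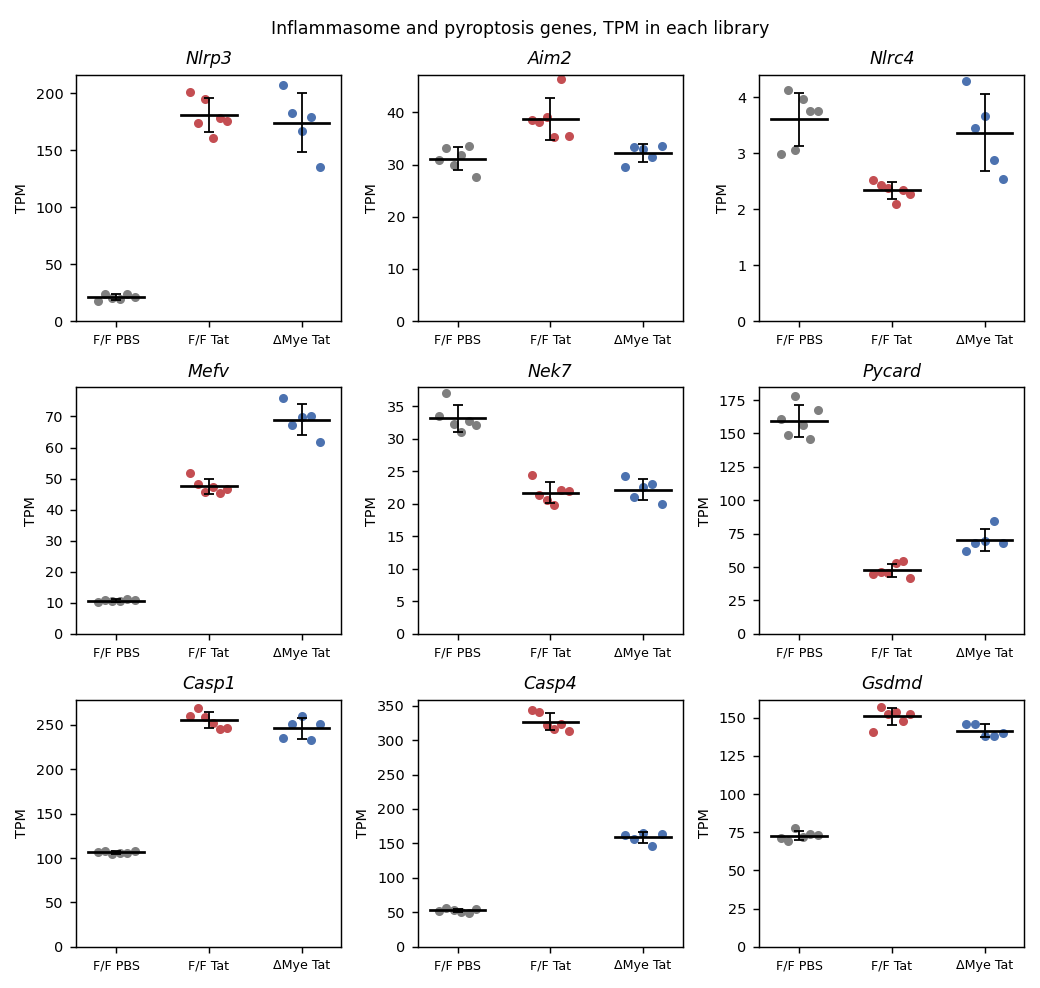
TPM (linear axis from 0) of each of the 9 genes in each library of F/F PBS (n = 6), F/F Tat (n = 6) and ΔMye Tat (n = 5), with points for libraries, a horizontal bar for the mean and an error bar for the SD. Casp4 sits between 313 and 343 TPM in F/F Tat and between 146 and 166 TPM in ΔMye Tat, while Nlrp3, Casp1, Gsdmd and Nek7 overlap between these groups.

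Between ΔMye Tat and F/F Tat the genes split. Casp4 was at 48.7% of its F/F Tat level, and Aim2 was lower by a small amount (log2 fold change -0.27, or -0.48 after scaling). Mefv, Pycard and Nlrc4 were higher, and Nlrp3, Casp1, Gsdmd and Nek7 did not pass the test on the deposited scale. At an adjusted p under 0.01, 3 of the 9 genes were higher and 2 lower, where 38.8% of all genes were higher and 8.87% lower. On the deposited scale the same 5 genes were those whose libraries did not overlap. Of all genes 28.6% were without overlap on the higher side and 8.01% on the lower. No gene of the 9 passed a fold change over 3 as well, which 0.440% of all genes did upward and 0.316% downward. The median log2 fold change was 0.22 over all genes and -0.06 over the 9 genes, and -0.27 over the 9 genes after scaling, where that of all genes was 0.01. On the scaled values 2 genes, Mefv and Pycard, were higher and 6 lower (16.4% and 18.8% of all genes), since Nlrp3, Casp1, Gsdmd and Nek7 then passed the test as lower and Nlrc4 no longer passed it.

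Set against F/F PBS, the Tat-treated ΔMye macrophages had Nlrp3 8.30 times higher, Mefv 6.42 times, Casp4 3.02 times, Casp1 2.31 times and Gsdmd 1.95 times, by the ratio of mean TPM. At an adjusted p under 0.01, 5 genes were higher (Nlrp3, Mefv, Casp1, Casp4 and Gsdmd) and 2 lower (Pycard and Nek7), beside 17.5% and 58.8% of all genes. After scaling 6 were higher, now with Aim2, and 2 lower, beside 34.0% and 33.7% of all genes. With a fold change over 3 in addition, 3 were higher (Nlrp3, Mefv and Casp4) and 0 lower, beside 4.38% and 11.1% of all genes. This comparison changes genotype and treatment at once and shares its groups with the other comparisons.

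**Figure D2:**
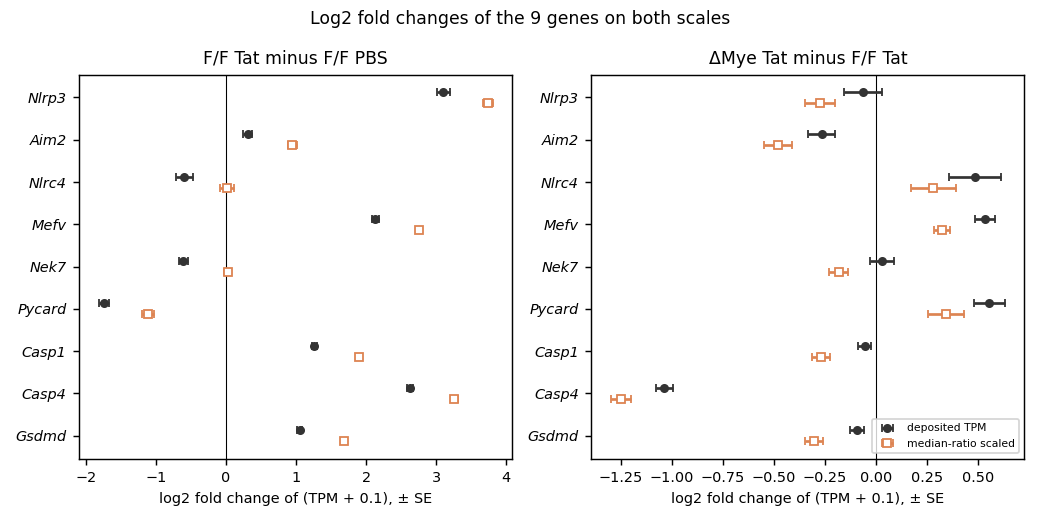
Log2 fold change of TPM + 0.1 (points, with bars for the standard error) of the 9 genes for F/F Tat minus F/F PBS and for ΔMye Tat minus F/F Tat, from the deposited TPM (filled) and after median-ratio scaling (open). Scaling moved Nlrc4 from -0.60 to 0.01 and Nek7 from -0.61 to 0.02 in the Tat comparison, and Casp4 stayed lowest in ΔMye Tat on both scales, at -1.04 and -1.25.

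Among the sensors, Nlrp3 encodes the sensor of potassium efflux and membrane damage (chromosome 11, 59541568 to 59566956 of GRCm38, plus strand). It was 17.6 TPM in the lowest F/F PBS library, 20.6 at the median and 23.9 in the highest, and 160.3, 177 and 201 TPM in F/F Tat. In ΔMye Tat libraries 19 to 23 it was 207, 182, 167, 179 and 135 TPM. The Tat libraries of both genotypes lay far above PBS and overlapped each other. The log2 fold change with Tat was 3.10 (SE 0.09, adjusted p = 4.25e-17), larger than that of 98.3% of all genes tested. Between ΔMye Tat and F/F Tat it was -0.06 (95% interval -0.26 to 0.13, adjusted p = 0.573), and after scaling -0.28 (adjusted p = 0.00421). Leaving out library 23 of ΔMye Tat turned the deposited-scale value to 0.03.

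Because Nlrp3 rose most with Tat, its promoters are shown, as the 250 bases before each of its start sites in RefSeq (GRCm38.p6). Capitals mark the letters GGNNTTTCC on either strand, a κB-type motif of NF-κB. The matches lie at -94 to -86 from the first start site (plus strand) and at -122 to -114 from the second (minus strand).
Nlrp3 start site 1, chr11:59542436-59542685, plus strand: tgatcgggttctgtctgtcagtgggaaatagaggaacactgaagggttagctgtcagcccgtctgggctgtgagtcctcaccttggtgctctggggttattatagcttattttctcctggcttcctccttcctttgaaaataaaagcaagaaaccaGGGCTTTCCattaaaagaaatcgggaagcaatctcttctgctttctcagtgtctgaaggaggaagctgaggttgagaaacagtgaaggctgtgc
Nlrp3 start site 2, chr11:59541319-59541568, plus strand: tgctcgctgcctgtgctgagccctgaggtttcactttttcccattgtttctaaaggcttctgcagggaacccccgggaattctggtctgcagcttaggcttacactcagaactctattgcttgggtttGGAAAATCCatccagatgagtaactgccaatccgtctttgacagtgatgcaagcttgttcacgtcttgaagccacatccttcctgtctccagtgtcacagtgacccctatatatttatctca
RefSeq promoters were found for 8 of the 9 genes, with 10 start sites in all. Only those of Nlrp3 and Casp4, the genes with a second start site here, held this motif. It is held by 4.93% of 32851 promoters of this length, and by 5.62% of 27025 genes at any start site. The core of the interferon-stimulated response element (ISRE), searched on both strands, was in none of the 10 and in 2.98% of all promoters. A match describes letters and not binding.

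Aim2 encodes the sensor of double-stranded DNA in the cytosol (chromosome 1, 173350879 to 173466040, plus strand). It was 27.6, 31.3 and 33.6 TPM at the lowest, median and highest F/F PBS library and 35.3, 38.3 and 46.3 TPM in F/F Tat. The ΔMye Tat libraries held 29.4, 33.3, 32.9, 31.4 and 33.6 TPM. Each F/F Tat library was above every library of the other groups, and ΔMye Tat lay within the range of F/F PBS. Its log2 fold change was 0.31 with Tat (SE 0.06, adjusted p = 0.000131) and -0.27 in ΔMye Tat against F/F Tat (SE 0.07, adjusted p = 0.00206). After scaling these were 0.94 (adjusted p = 7.17e-11) and -0.48 (adjusted p = 1.06e-05). Against F/F PBS the ΔMye Tat group differed by 0.05 (adjusted p = 0.519), but by 0.46 after scaling (adjusted p = 5.00e-06). An exon of Aim2 overlaps Cadm3 on the opposite strand, and the library's strand setting is not stated, so reads of the 2 genes may not be told apart. Of the 31-base sequences of Aim2, 4.89% also occur in other genes, the highest share among the 9 genes.

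Nlrc4, whose product works with NAIP proteins to sense flagellin and bacterial secretion systems, was the lowest of the 9 genes in every group (chromosome 17, 74425438 to 74459142, minus strand). It was 2.98, 3.75 and 4.12 TPM at the lowest, median and highest F/F PBS library and 2.09, 2.36 and 2.51 TPM in F/F Tat. The ΔMye Tat libraries held 4.29, 3.44, 3.66, 2.87 and 2.54 TPM, all above F/F Tat, library 23 by little, and reaching past both ends of F/F PBS. On the deposited scale it was lower with Tat by a log2 fold change of -0.60 (SE 0.12, adjusted p = 0.000127), but 0.01 after median-ratio scaling (adjusted p = 0.910) and 0.47 after quantile normalization. In ΔMye Tat against F/F Tat it was 0.49 (SE 0.13, adjusted p = 0.00286), and 0.28 after median-ratio scaling (adjusted p = 0.0439). Without library 19 of ΔMye Tat the adjusted p on the deposited scale was 0.0112.

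Mefv encodes pyrin, the sensor mutated in familial Mediterranean fever (chromosome 16, 3707218 to 3718097, minus strand). It was 10.2, 10.7 and 11.3 TPM at the lowest, median and highest F/F PBS library and 45.4, 46.9 and 51.8 TPM in F/F Tat. In ΔMye Tat it was 76.1, 67.3, 69.7, 70.2 and 61.9 TPM. The groups formed 3 separate levels with no overlap, highest in ΔMye Tat. Mefv had a log2 fold change of 2.13 with Tat (SE 0.05, adjusted p = 6.41e-19) and 0.54 in ΔMye Tat against F/F Tat (SE 0.05, adjusted p = 3.12e-08), and 2.76 and 0.32 after scaling. Among the 9 genes it was the one that rose with Tat and was higher still in ΔMye Tat on both scales.

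Nek7 encodes a kinase that binds NLRP3 and is needed for its assembly (chromosome 1, 138482875 to 138620141, minus strand). It was 31.1, 32.5 and 37.1 TPM at the lowest, median and highest F/F PBS library and 19.9, 21.7 and 24.4 TPM in F/F Tat. The ΔMye Tat libraries held 24.2, 21.1, 22.6, 23.03 and 20.03 TPM, in the range of F/F Tat and below every F/F PBS library. The log2 fold change with Tat was -0.61 (SE 0.06, adjusted p = 6.92e-09) on the deposited scale and 0.02 after scaling (adjusted p = 0.647), close to the typical gene on either scale. Against F/F Tat the ΔMye Tat group differed by 0.03 (95% interval -0.10 to 0.16, adjusted p = 0.688), and -0.18 after scaling (adjusted p = 0.00415), where these groups no longer overlapped. An exon of Nek7 overlaps the antisense gene Gm28501.

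Pycard encodes ASC, the adaptor whose specks link most sensors to caspase-1 (chromosome 7, 127989708 to 127993867, minus strand). It was the most abundant of the 9 transcripts in F/F PBS, at 146, 158 and 178 TPM at the lowest, median and highest library, and 42.1, 46.0 and 54.4 TPM in F/F Tat. In ΔMye Tat it was 62.3, 67.6, 69.6, 84.1 and 67.7 TPM. Every ΔMye Tat library lay between the other groups, without overlap with either. The log2 fold change was -1.74 with Tat (SE 0.07, adjusted p = 1.48e-14), and -1.11 after scaling (adjusted p = 2.49e-10). In ΔMye Tat against F/F Tat it was 0.56 (SE 0.08, adjusted p = 4.73e-06), and 0.34 after scaling (adjusted p = 0.00303), where the groups overlapped. An exon of Pycard overlaps Gm45205 on the opposite strand. Its promoter is shown since it was the gene of the 9 that fell on both scales, and it holds neither motif.
Pycard start site 1, chr7:127993868-127994117, minus strand: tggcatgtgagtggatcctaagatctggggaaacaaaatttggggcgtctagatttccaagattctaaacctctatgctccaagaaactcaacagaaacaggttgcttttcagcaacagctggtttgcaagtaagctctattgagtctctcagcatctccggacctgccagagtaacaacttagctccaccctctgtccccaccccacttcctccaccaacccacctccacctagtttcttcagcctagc

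Casp1 encodes caspase-1 (chromosome 9, 5298517 to 5307265, plus strand). It was 105, 107 and 108 TPM at the lowest, median and highest F/F PBS library and 246, 256 and 269.6 TPM in F/F Tat. The ΔMye Tat libraries held 236, 252, 259.9, 233 and 251 TPM, overlapping F/F Tat. Tat raised it by a log2 fold change of 1.26 (SE 0.03, adjusted p = 3.17e-18). In ΔMye Tat against F/F Tat it was -0.06 (95% interval -0.12 to 0.01, adjusted p = 0.145), and -0.27 after scaling (adjusted p = 5.60e-05), where the groups no longer overlapped.

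Casp4 lies next to Casp1 on the same strand and encodes the mouse caspase-11, the sensor and protease of the non-canonical pathway that answers lipopolysaccharide in the cytosol (chromosome 9, 5308828 to 5336783). It was 49.3, 52.6 and 56.1 TPM at the lowest, median and highest F/F PBS library and 313, 323 and 343 TPM in F/F Tat. In ΔMye Tat it was 163, 157, 166, 146 and 164 TPM. Each group stood apart from the others, with ΔMye Tat in between. The log2 fold change was 2.63 with Tat (SE 0.04, adjusted p = 1.14e-21) and -1.04 in ΔMye Tat against F/F Tat (SE 0.04, adjusted p = 1.80e-13), below that of all but 1.28% of the genes tested. After scaling these were 3.26 and -1.25. ΔMye Tat remained above F/F PBS by 1.59 (SE 0.04, adjusted p = 1.25e-17). The exact permutation test (two-sided) of ΔMye Tat against F/F Tat gave p = 0.00433, the smallest it gives for 5 against 6 libraries.

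The promoter of Casp4 is shown since the gene had the largest difference between the genotypes of the 9. It holds the κB-type letters at -92 to -84 (plus strand) and at -14 to -6 (minus strand) from its first start site, and the other annotated start site lies close by and shares both.
Casp4 start site 1, chr9:5308599-5308848, plus strand: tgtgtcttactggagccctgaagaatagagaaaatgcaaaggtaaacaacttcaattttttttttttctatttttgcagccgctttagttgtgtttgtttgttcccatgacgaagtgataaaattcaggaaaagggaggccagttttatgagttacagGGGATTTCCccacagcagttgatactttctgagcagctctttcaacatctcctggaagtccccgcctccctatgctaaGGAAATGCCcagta
The promoter of Casp1, the neighbour of Casp4, is shown too, and it holds neither motif. In ΔMye Tat against F/F Tat the log2 fold change of Casp1 was -0.06, or -0.27 after scaling. Nlrp3, whose promoters hold the κB-type letters, had -0.06, or -0.28 after scaling. Any part of the motif in these differences was not tested.
Casp1 start site 1, chr9:5298267-5298516, plus strand: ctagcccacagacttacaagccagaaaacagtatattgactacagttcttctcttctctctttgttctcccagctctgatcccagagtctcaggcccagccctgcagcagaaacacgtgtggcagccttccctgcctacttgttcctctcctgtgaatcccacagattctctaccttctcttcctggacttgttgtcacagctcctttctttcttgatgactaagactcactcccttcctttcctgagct

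Gsdmd encodes gasdermin D, the pore-forming executor (chromosome 15, 75862327 to 75867408, plus strand). It was 69.3, 72.4 and 77.5 TPM at the lowest, median and highest F/F PBS library and 141, 153 and 157 TPM in F/F Tat. In ΔMye Tat it was 146, 146, 138, 138 and 140.1 TPM, overlapping the lower end of F/F Tat. Gsdmd had a log2 fold change of 1.05 with Tat (SE 0.03, adjusted p = 1.42e-16) and -0.09 in ΔMye Tat against F/F Tat (95% interval -0.16 to -0.02, adjusted p = 0.0277). After scaling the latter was -0.30 (adjusted p = 1.27e-05), and these groups no longer overlapped. Leaving out library 7 of F/F Tat gave an adjusted p of 0.00799 on the deposited scale.

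For the genes that did not pass the test between ΔMye Tat and F/F Tat, the exact permutation test of mean TPM (two-sided) gave p = 0.632 for Nlrp3, 0.165 for Casp1, 0.0173 for Gsdmd and 0.645 for Nek7. For Aim2, Nlrc4, Pycard and Mefv the same exact test gave p = 0.00433, as for Casp4. These p-values are not adjusted for the number of genes.

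The order of the 9 levels was reset by Tat. In F/F PBS it ran from Pycard (159 ± 11.9 TPM, SD, n = 6) through Casp1 (106 ± 1.36), Gsdmd (72.8 ± 2.76), Casp4 (52.8 ± 2.64), Nek7 (33.1 ± 2.08), Aim2 (31.2 ± 2.25), Nlrp3 (20.98 ± 2.42) and Mefv (10.8 ± 0.334) to Nlrc4 (3.61 ± 0.476). The libraries of Nek7 and Aim2 overlapped, and those of other neighbours in the order did not. In F/F Tat Casp4 came first (327 ± 12.3 TPM, SD, n = 6), then Casp1 (256 ± 9.17), Nlrp3 (181 ± 14.8), Gsdmd (151 ± 5.63), Pycard (47.7 ± 4.82), Mefv (47.5 ± 2.35), Aim2 (38.8 ± 4.01), Nek7 (21.7 ± 1.57) and Nlrc4 (2.34 ± 0.147), with overlap between Pycard and Mefv and between Mefv and Aim2. In ΔMye Tat Casp1 was first (246 ± 11.6 TPM, SD, n = 5), Nlrp3 (174 ± 26.2) and Casp4 (159 ± 8.03) overlapped, Gsdmd was at 142 ± 3.98, and Pycard (70.3 ± 8.22) overlapped Mefv (69.0 ± 5.14). Aim2 (32.1 ± 1.74), Nek7 (22.2 ± 1.66) and Nlrc4 (3.36 ± 0.688) ended the order. Summed over the 9 genes, the level was 491 ± 11.1 TPM (SD) with PBS, 1072 ± 29.2 with Tat and 918 ± 27.4 for ΔMye cells with Tat.

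Ratios of TPM within a library are free of the scaling between libraries, and those given here were chosen after the values were seen and have no test. The ratio of Nlrp3 to Pycard was 0.133 ± 0.0230 (SD, n = 6) in the F/F PBS libraries, 3.83 ± 0.578 (n = 6) after Tat and 2.51 ± 0.527 (n = 5) in the ΔMye Tat libraries. Casp4 over Casp1 was 0.496 ± 0.0214, 1.28 ± 0.0329 and 0.647 ± 0.0269 in the same order, and its F/F Tat range (1.24 to 1.32) lay far from that of ΔMye Tat (0.624 to 0.690). Gsdmd over Casp1 was lower in both Tat groups, at 0.684 ± 0.0337, 0.591 ± 0.0275 and 0.577 ± 0.0332. Its range was 0.641 to 0.742 in F/F PBS, above 0.542 to 0.619 in F/F Tat and 0.532 to 0.619 in ΔMye Tat. Mefv over Pycard was 0.0678 ± 0.00625 in F/F PBS and near 1 in both Tat groups, at 1.00 ± 0.122 and 0.993 ± 0.145.

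The spread within groups also differed between the genes. Casp1, Casp4 and Gsdmd had coefficients of variation of 1.27% to 5.04% in every group, while Nlrp3 reached 15.0% and Nlrc4 20.5% in ΔMye Tat. After each group's mean was taken off, Nlrp3, Nlrc4, Nek7 and Mefv varied together over the 17 libraries, with Pearson's r of 0.51 to 0.77 between pairs of them. ΔMye Tat library 19 was highest of its group and library 23 lowest in each of these 4 genes. They are also the 4 genes of the 9 with the longest annotated transcripts, at a median of 3933 bases for Nlrp3, 3942 for Nlrc4, 4336 for Nek7 and 2739 for Mefv, while the other 5 genes had medians of 898 to 2147 bases. In each library the median deviation of the 2586 shortest genes (at most 1188 bases) was subtracted from that of the 2585 longest (at least 3258 bases). Over the 17 libraries this difference had r = 0.89 with the deviations of Nlrp3, 0.76 with Nlrc4, 0.80 with Nek7 and 0.78 with Mefv, and -0.35 to 0.09 with the other 5 genes. All genes of a library share its depth and preparation, so these r describe the libraries and carry no test. Without ΔMye Tat libraries 19 and 23 (15 libraries left) r was 0.79, 0.51, 0.72 and 0.49 in the same order, and that of Aim2 and Gsdmd moved to 0.52 and -0.56, so the split between the 4 genes and the others rests in part on these 2 libraries. With the difference as a covariate in the fit, chosen after seeing the data, the SE of Nlrp3 in ΔMye Tat against F/F Tat went from 0.09 to 0.05 and its log2 fold change was -0.07 (adjusted p = 0.210). This difference was built from deviations from each group's mean, so it could hardly move a fold change between groups and acted on the SE. No gene of the 9 changed its call with it in any of the 3 comparisons. That cannot tell of an effect of length between groups. On the deposited scale the median log2 fold change with Tat was -0.74 over the shortest genes and -0.58 over the longest. In ΔMye Tat against F/F Tat it was 0.23 for both. The part of length in the group differences was not tested.

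**Figure D3:**
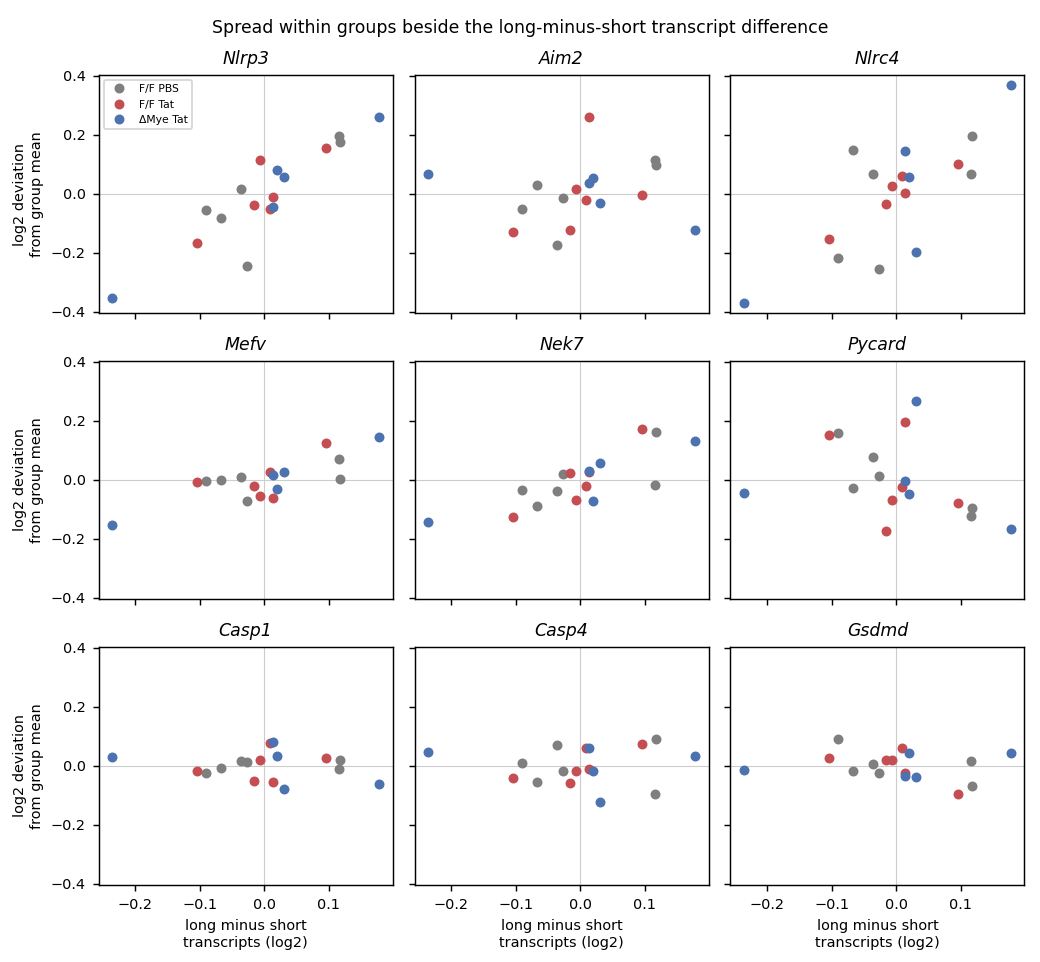
Log2 deviation of each gene from its group mean (vertical axis) against the difference between long and short transcripts in the same library (horizontal axis, log2), with 1 point for each of the 17 libraries, coloured by group. Points of Nlrp3, Nlrc4, Nek7 and Mefv rise from lower left to upper right (r = 0.76 to 0.89), and ΔMye Tat libraries 23 and 19 are the extremes at left and right.

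The genes whose pattern was most like each member were the 3 with the highest Pearson's r of log2 TPM over the 17 libraries, a measure that takes in the differences between the groups. For Nlrp3 they were Axl, Kdm6b and Nod1 (r = 0.999, 0.998 and 0.998). Casp4 was most like Enpp4, Tor1aip2 and Ier3 (r = 0.998 for each), and Ier3 had means of 90.4, 654 and 310 TPM in F/F PBS, F/F Tat and ΔMye Tat. Casp1 was most like Ifi205, Ccl4 and Slfn2, Gsdmd most like Rcl1, Junb and Nfkbib, and Mefv most like F10, Ralgds and Src, whose mean went from 3.19 to 32.7 and 52.8 TPM. Pycard was most like Prdx3 and Pla2g12a among others (r = 0.99 for each), Nek7 most like Gpr35, Gclc and Fnip2, and Nlrc4 most like Prrc2b, Dcaf10 and Ago1. The best r for Aim2 was lowest, 0.87 for B230307C23Rik and Gypc and 0.86 for Mcmbp.

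Beyond the 9 genes, a list of 47 other genes of the pathway was followed, of which 45 were in the table and 39 passed the filter on low values. With Tat, 18 of the 39 were higher and 18 lower at an adjusted p under 0.01, and 24 were higher and 11 lower after scaling. The median log2 fold change was 0.11 over the list and 0.74 after scaling. In ΔMye Tat against F/F Tat 10 were higher and 14 lower, and after scaling 6 were higher and 21 lower. Against F/F PBS the ΔMye Tat group had 17 of them higher and 17 lower, or 22 and 12 after scaling. Among those with at least 5 TPM in the higher group they were led by Il1b (log2 fold change 7.18), Il1a (5.74), Gbp5 (4.67) and Il1rn (3.96) upward and by Nlrc3 (-2.68), Panx1 (-2.41), Nlrx1 (-1.76) and Pstpip1 (-1.57) downward. The shares of all genes given above for the 9 genes apply to these counts too.

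Within the list, the interleukin-1 genes Il1b and Il1a had the largest rises with Tat. Il1b, the precursor that caspase-1 matures, went from 50.1 ± 3.08 TPM (SD, n = 6) to 8208 ± 231 (n = 6), and was 7278 ± 259 (n = 5) in ΔMye Tat. Il18, the other caspase-1 substrate, was 13.1 ± 1.56, 216 ± 11.6 and 154 ± 11.8 TPM in the same order, with log2 fold changes of 4.04 with Tat (adjusted p = 7.25e-21) and -0.49 in ΔMye Tat against F/F Tat (adjusted p = 9.02e-06). Il1a was 80.4 ± 5.33, 6356 ± 266 and 4307 ± 115 TPM. Il1rn, the secreted antagonist of the interleukin-1 receptor, was 121 ± 7.71, 3981 ± 77.3 and 1879 ± 48.0 TPM, and its log2 fold change in ΔMye Tat against F/F Tat was -1.08 (adjusted p = 1.70e-14), beside -0.17 for Il1b (adjusted p = 0.000671). The ratio of Il1b to Il1rn within a library was 0.415 ± 0.0303, 2.06 ± 0.0838 and 3.87 ± 0.107, so it was highest in ΔMye Tat, by ratios picked after the values were seen. In this group of 6 cytokines and inhibitors 5 rose with Tat and Hmgb1, a nuclear alarmin, fell (log2 fold change -2.07, adjusted p = 2.41e-15).

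Among 12 tested regulators of assembly 4 rose and 8 fell with Tat, or 5 and 6 after scaling. Gbp5, a guanylate-binding protein that promotes assembly, rose from 17.8 ± 1.70 to 523 ± 21.1 TPM. Nlrc3 (log2 fold change -3.22, adjusted p = 2.59e-14), Panx1 (-2.51, adjusted p = 4.40e-05), which encodes a channel, and Pstpip1 (-2.32, adjusted p = 2.50e-17), whose product binds pyrin, fell. Pstpip1 (0.75, adjusted p = 2.17e-08) and Txnip (0.65, adjusted p = 3.12e-09), which encodes a thioredoxin-binding protein, were higher in ΔMye Tat than in F/F Tat, and Serpinb1a, an inhibitor of inflammatory caspases, was lower (-0.61, adjusted p = 0.000429).

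Of 7 other caspases and lytic effectors tested, 4 rose with Tat, among them Casp8 and Mlkl, and 2 fell. The same 4 effectors were lower in ΔMye Tat than in F/F Tat and Ripk3 was higher, beside 8.87% of all genes lower and 38.8% higher. Casp8, which encodes the initiator caspase of death receptors, was 143 ± 4.28 TPM (SD, n = 6) in F/F Tat and 87.4 ± 3.27 (n = 5) in the ΔMye Tat libraries, a log2 fold change of -0.71 (adjusted p = 1.54e-11). Of the transcription factors, Irf8, which drives expression of the NAIP sensors, rose with Tat and was higher again in ΔMye Tat (log2 fold change 0.77, adjusted p = 2.55e-10).

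Of 6 other sensors tested, Zbp1, the sensor of Z-form nucleic acids, rose with Tat and 5, among them 4 Naip genes, fell, while after scaling 2 fell and the other three did not pass the test. Of 5 ESCRT genes, whose products repair gasdermin pores, 2 rose and 2 fell with Tat, but after scaling 5 were higher and 0 lower. In ΔMye Tat against F/F Tat 1 ESCRT gene was higher and 1 lower, and after scaling 0 were higher and 3 lower. Of all genes 38.8% were higher and 8.87% lower in ΔMye Tat against F/F Tat, or 16.4% and 18.8% after scaling.

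**Figure D4:**
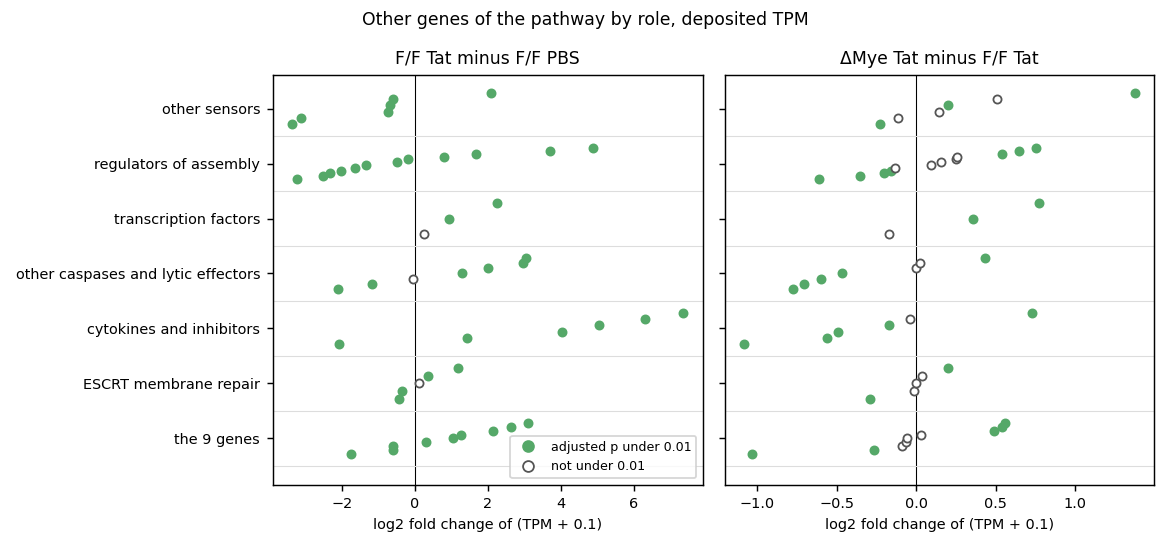
Log2 fold change of TPM + 0.1 on the deposited scale (horizontal axis) for the 39 tested genes of the pathway list by role and for the 9 genes, in F/F Tat minus F/F PBS and in ΔMye Tat minus F/F Tat, with filled points for an adjusted p under 0.01. The rightmost points of the Tat comparison are Il1b (7.36) and Il1a (6.30), and Il1rn (-1.08) and Casp4 (-1.04) are the leftmost of the ΔMye comparison, while some small changes of the Tat comparison, such as those of Nlrc4 and Nek7, turn positive after scaling.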

How the data were processed

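RNA-Seq libraries of mouse peritoneal macrophages were grouped by the sample labels. The authors made the deposited TPM values with Salmon and Ensembl gene models (GRCm38), and the labels name mm10. TPM hold no read counts, so depth and counting error are unknown, and the authors' edgeR test on counts could not be repeated. Of the rows, 26 have symbols turned into dates, and 2 symbols are repeated. No column was left unmapped.

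A gene was tested if 5 or more libraries held 1 TPM or more (10451 genes). The test was limma 3.58.1 (R 4.3.3; eBayes with a trend, after lmFit) on log2(TPM + 0.1), with the 3 groups sharing 1 fit and 14 residual degrees of freedom. Fold changes are on that scale and understate those of low genes. Adjusted p-values (Benjamini-Hochberg) cover all genes tested. Single genes were also compared by exact permutation tests of mean TPM (two-sided). Median-ratio scaling and quantile normalization were alternatives, with pseudocounts of 0.5 and 1, filters, robust eBayes with array weights, the compared groups alone, and each library left out.

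Named genes were the 9 genes, up to 4 genes of the pathway list per direction and comparison without overlap and with at least 5 TPM, Il1b and Il18, and the 3 genes most like each of the 9. Some items of this rule and of the samples' description are not reported here. Ratios, the length comparison and other pathway genes were chosen after the values were seen. The genes and lists were chosen with earlier results of these data known. Coordinates, lengths and 31-base sequences are from GENCODE M21 and promoters from RefSeq. Scripts ran in Python 3.11.15 with scipy 1.17.1, matplotlib 3.10.9, pandas 2.3.3 and numpy 2.4.6.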

Additional observations from a re-analysis of the deposited data

Results flagged for a closer look

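In 72 sets of a gene and a group (the 9 genes and the named pathway genes), 4 had a library that stood apart from the others by Dixon's criterion, which chance meets in about 1 of 20 groups. Of the 9 genes only Aim2 had one, at 46.3 TPM in F/F Tat library 11, where the next highest library of the group held 39.1 TPM. Il1b was lowest in the same library, at 7755 TPM, with the next lowest at 8208. In F/F Tat library 9 Hmgb1 was highest, at 26.5 TPM with the next at 21.97, and Txnip was lowest, at 19.5 TPM with the next at 21.4.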

How the results depend on the processing

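Of the fold changes of the 9 genes computed under the alternatives, 680 kept their direction and side of the threshold, 7 passed it newly, 3 no longer passed it and 9 turned direction. After median-ratio scaling 1 of the 9 genes was lower with Tat and 6 were lower in ΔMye Tat against F/F Tat, and of the pathway list 11 were lower with Tat and 6 higher in ΔMye Tat against F/F Tat (5 after quantile normalization). Direction turned for Nlrc4 with Tat (0.0134 scaled, 0.47 after quantile normalization), for Nek7 with Tat (0.0231 scaled), for Nek7 in ΔMye Tat against F/F Tat (-0.18 scaled, -0.15 after quantile normalization) and for Nlrc4 in ΔMye Tat against F/F PBS (0.29 and 0.63). With a fold change over 3 required, 3 of the 9 genes were higher and 1 lower with Tat, 0 and 0 in ΔMye Tat against F/F Tat, and 3 and 0 in ΔMye Tat against F/F PBS, and of the pathway list 9 were lower with Tat, 0 higher and 0 lower in ΔMye Tat against F/F Tat, and 11 higher and 6 lower in ΔMye Tat against F/F PBS, as fewer genes can pass.

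With each library left out, 6 of the 9 genes stayed higher and 3 lower with Tat, 2 to 3 were higher and 2 to 3 lower in ΔMye Tat against F/F Tat, and 5 and 2 in ΔMye Tat against F/F PBS. For the pathway list the counts were 18 to 19 and 17 to 18, 8 to 11 and 12 to 14, and 17 to 18 and 16 to 17. In ΔMye Tat against F/F Tat these fits spanned -0.0031 to 0.0655 for Nek7 (lowest without library 19) and -0.128 to 0.0254 for Nlrp3 (highest without library 23), with no value past the threshold. The long-minus-short covariate, added after seeing the data, moved no count by over 1.5 times. It was taken from deviations within groups, so it could hardly move the fold changes themselves. No paired analysis was run, since the labels do not say whether F/F PBS and F/F Tat libraries came from the same mice. The cause of these changes was not tested. With depth unknown, low genes such as Nlrc4 have no counting interval.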
